A study of Mus musculus with 18 samples.

Results

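Oxidative phosphorylation is carried out in the inner mitochondrial membrane by complexes I to IV and by complex V, the ATP synthase. Complexes I to IV pass electrons from NADH and succinate to oxygen. Of these, complexes I, III and IV pump protons, and complex V uses the proton gradient to make ATP. Most subunits are encoded in the nucleus and imported, while a small core of complexes I, III, IV and V is encoded by mitochondrial DNA. In liver, this system supplies the ATP for gluconeogenesis, urea synthesis and the secretion of plasma proteins, and it takes up the electrons released by fatty acid oxidation. The genes described here are the nuclear-encoded ones, chosen by name from the rows of the count table: symbols that start with Nduf followed by a, b, c, s or v, with Uqcr, with Atp5 or with Cox4 to Cox8, and the 4 genes Sdha to Sdhd. Of 24394 gene symbols 92 matched, and the 84 with at least 100 counts summed over all livers are the members. They hold 74 subunits (35 of complex I, 4 of complex II, 8 of complex III, 13 of complex IV and 14 of complex V) and 10 genes that share the name pattern without being subunits of a complex, mostly assembly factors.

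The RNA came from 18 mouse livers in 3 groups of 6. Control WT livers came from wild-type mice labelled Ctrl, WT PDAC livers from wild-type mice labelled PDAC, and Stat3-deleted livers from Alb-Cre+/+ STAT3f/f mice, also labelled PDAC. The plots name the last 2 groups tumour WT and tumour Stat3-del. The tumour line is PDA.69, a line of pancreatic ductal adenocarcinoma cells derived from KPC mice and low in T cells, and the labels list it for the control livers as well. Alb-Cre drives Cre recombinase from the albumin promoter in hepatocytes. Liver cells in which that promoter was never active keep floxed Stat3, the transcription factor that relays signals of IL-6 family cytokines. No group holds Stat3-deleted livers without a tumour, and the labels give no age, sex, site or time of tumour implantation. Nothing in the labels states that a number marks a batch. The WT mice carry 2 separate runs of label numbers, 3 mice of each group in either run, and the Stat3-deleted mice carry a run of their own, so that run and genotype cannot be told apart.

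Each library was read from the 3′ ends of polyadenylated RNA, which gives about 1 tag per transcript whatever its length. Libraries held 5204378 to 7149953 counts in control WT, 6159553 to 8838849 in WT PDAC and 7211799 to 9532978 in Stat3-deleted livers. Stat3 itself, whose tags need not lie in the deleted part and so do not check the deletion, had 93.6 to 148 CPM (tags per library total, the total scaled by TMM and set to 1000000) in control WT, 163 to 264 in WT PDAC and 99.4 to 132 in Stat3-deleted livers. The 8 genes listed as hepatocyte markers, among them Alb, were all detected and summed to a median of 64481 CPM in control WT, 66718 in WT PDAC and 105610 in Stat3-deleted livers, so the labelled tissue and its markers match. In whole liver, fewer cells of a type and less RNA per cell cannot be told apart. Mitochondrially encoded transcripts were not analysed here.

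The members took a smaller part of the tags in WT PDAC livers than in either other group. Their share of all counts was 2.47 to 2.86% in control WT (mean 2.66% ± 0.160, SD, n = 6), 1.85 to 2.62% in WT PDAC (2.14% ± 0.298) and 2.17 to 2.88% in Stat3-deleted livers (2.56% ± 0.253). The ranges of the 3 groups overlapped. A share of raw counts also moves with the other RNA in a library, and the TMM factors ran from 0.750 to 1.09 in WT PDAC against 1.02 to 1.11 in control WT livers. On the TMM scale the sum over the members had a median of 25169 CPM in control WT, 22883 in WT PDAC and 25671 in Stat3-deleted livers. The mean level of a single member ran from 1.40 CPM for Cox6b2, a testis-type subunit of complex IV, to 1491 CPM for Uqcrq, a small subunit of complex III, and 64 of the 84 members had a mean of at least 100 CPM.

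The complexes differed in how far their sums moved. For complex II, succinate dehydrogenase, the sum of the 4 genes was 947 to 1228 CPM in control WT (median 1065), 750 to 1124 in WT PDAC (median 908) and 1113 to 1456 in Stat3-deleted livers (median 1252). WT PDAC liver 5 alone lay above the lowest Stat3-deleted liver. For complex IV, cytochrome c oxidase, the sum of 13 genes was 4318 to 5134 CPM in control WT (median 4968), 3824 to 4899 in WT PDAC (median 4350) and 4291 to 6063 in Stat3-deleted livers (median 5301). Complex I, the NADH dehydrogenase and the largest of the 5, summed to medians of 7861, 7237 and 8242 CPM in the same order of groups, and complex V to 6950, 6242 and 6835 CPM. Complex III, the cytochrome bc1 complex, had medians of 3724, 3873 and 3961 CPM, so its WT PDAC median was not below that of control WT. Its lowest liver was WT PDAC liver 1 with 3124 CPM, against 3374 CPM in the lowest control WT liver. Of its 8 genes 5 had a log2 fold change below 0 for WT PDAC against control WT. Uqcrq, its most abundant gene with a mean of 1491 CPM, had 0.19. No sum of a complex separated any pair of groups.

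**Figure D1:**
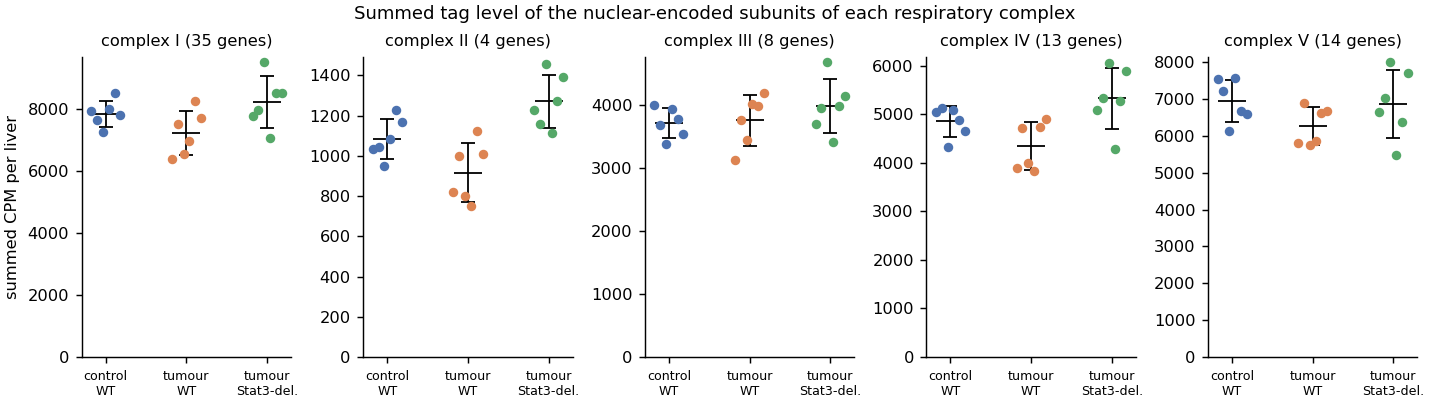
Summed tag level of the members of each respiratory complex, in CPM with TMM-scaled totals (y axes from 0, a scale of its own for each complex). Points are single livers, 6 per group, and bars show the mean and SD. The complex II sums of the Stat3-deleted livers run from 1113 to 1456 CPM against 750 to 1124 CPM in WT PDAC livers, and the groups overlap in all 5 panels.

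Livers of WT mice with the tumour line were first set against those of the control WT mice, to ask how bearing a tumour goes with these genes. Only Cox7a1 passed the test, and it fell. In edgeR's quasi-likelihood test with Benjamini-Hochberg adjustment over the 11218 genes tested, 1 of the 84 members had an adjusted p under 0.05, beside 2.25% of all genes tested, 1.76% of them higher and 0.490% lower. At an unadjusted p under 0.05, 10 members were lower and 0 higher, where 7.56% of all genes were lower and 8.63% higher. The median log2 fold change of the members was -0.13, beside 0.004 for all genes, and 66 of the 84 were below 0, beside 49.4% of all genes, with 50.6% above. No member separated the 2 groups, beside 1.05% of all genes higher and 0.464% lower without overlap. With library totals in place of TMM the median of all genes itself moved to -0.19 and that of the members to -0.32, so that the members lay 0.13 below all genes on either scale. Within the 2 runs of label numbers, 3 livers against 3, the members' median was -0.18 in the lower and -0.10 in the higher run.

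Cox7a1 encodes the heart and skeletal muscle isoform of a small subunit of complex IV, also abundant in brown fat. It lies on chromosome 7 (30184171 to 30186030, mm10). Its level was 2.92 to 11.1 CPM in control WT livers (median 5.90), 0.303 to 3.81 in WT PDAC (median 1.89) and 4.06 to 6.75 in Stat3-deleted livers (median 5.09). All 6 WT PDAC livers lay below the mean of the control WT livers, with an overlap between the groups, and below every Stat3-deleted liver. The log2 fold change of WT PDAC against control WT was -1.70 (adjusted p = 0.0145, SE 0.38). It was -2.15 within the lower run of label numbers (adjusted p = 0.0295) and -1.09 within the higher run (adjusted p = 0.535), and the call was lost when the 2 groups were fitted alone (adjusted p = 0.0615) or with the run as a block (adjusted p = 0.0702). The gene is rare in liver, with 597 counts over the 18 libraries. Markers of muscle summed to 0.919 to 4.59 CPM over the 18 livers, with Ckm and Myh6 at 0 in each, and those of fat to 0.439 to 30.0 CPM; the part of these tissues in the result was not tested.

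Among the other members, the assembly factor Ndufaf1 had the next largest difference between these groups, a log2 fold change of -0.64 (adjusted p = 0.106, SE 0.20). It had 13.1 to 20.0 CPM in control WT and 7.83 to 14.7 CPM in WT PDAC livers, all 6 of the latter below the control mean. No subunit of complexes I, II, III or V passed the test in edgeR, DESeq2 or limma voom, while at an unadjusted p under 0.05 edgeR had 5 lower in complex I, 0 in complex II, 1 in complex III and 1 in complex V. The lowest values of complex I were those of Ndufa5 (-0.37, adjusted p = 0.207) and Ndufv1 (-0.36, adjusted p = 0.196), the first an accessory subunit of the matrix arm and the second the core subunit that binds NADH and FMN. Uqcrc2, a core subunit of complex III, had -0.34 (adjusted p = 0.202), while Uqcrq had 0.19 (adjusted p = 0.480). Leaving out WT PDAC liver 5 raised the number of members called to 3, all lower, beside 0.959% of all genes. In this comparison 4 of 5 tested neutrophil markers, 3 of 8 Kupffer cell markers and 1 of 4 biliary markers rose. Of 9 pericentral hepatocyte markers 1 rose, and of 9 periportal ones 1 rose and 1 fell. The 8 general hepatocyte markers had 0 calls, with 4 above and 4 below 0 on the log2 scale. The part of these cells in the members' values was not tested.

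The second comparison, Stat3-deleted against WT livers of tumour-bearing mice, asks what hepatocyte Stat3 does to these genes when a tumour is present. Of the members 6 rose and 0 fell: Cox7a1 and Cox6a1 of complex IV, Sdhb of complex II, and the assembly-related genes Ndufaf1, Ndufaf6 and Atp5sl. These 6 of 84 members stand beside 6.12% of all genes called, 2.89% of them higher and 3.23% lower. At an unadjusted p under 0.05, 28 members were higher and 1 was lower, beside 8.70 and 10.7% of all genes. The median log2 fold change of the members was 0.20, beside -0.03 for all genes, and 73 of 84 were above 0, beside 45.9% of all genes, with 54.1% below. The WT PDAC livers enter this comparison as well as the first, so that the 2 sets of fold changes are not independent.

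The number of calls depended on the tool and on single livers, and no member was called lower in any alternative run. DESeq2 called 12 members higher, beside 3.93% of all genes, limma voom 19, beside 5.13%, and edgeR with library totals 13, beside 3.78%. In edgeR 12 were higher without WT PDAC liver 5 (3.95% of all genes), 12 without WT PDAC liver 6 (4.18%) and 10 without Stat3-deleted liver 4 (2.40%). In the same comparison neutrophil markers fell in 4 of 5 tested genes, and their summed level was 23.9 to 52.9 CPM in control WT, 69.8 to 358 in WT PDAC and 39.8 to 106 in Stat3-deleted livers. Biliary markers fell in 2 of 4 tested genes (Sox9 and Spp1, median of the list -0.98), and summed to 30.6 to 55.3, 43.5 to 147.5 and 28.4 to 43.7 CPM in the same order. Markers of hepatocytes summed to 55093 to 85086, 60284 to 127555 and 95190 to 109751 CPM. In edgeR 1 of these 8 rose (Ttr), as did 1 of 9 pericentral (Cyp1a2) and 2 of 9 periportal hepatocyte markers (Cyp2f2 and Hsd17b13). None of the 3 lists held a gene that fell in edgeR, while limma voom called 1 hepatocyte and 1 periportal marker lower. The log2 fold change was below 0 for 1, 5 and 2 genes of the 3 lists. At an unadjusted p under 0.05, 1, 1 and 4 genes were higher and 1, 2 and 1 lower. The part of these cells in the members' values was not tested.

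**Figure D2:**
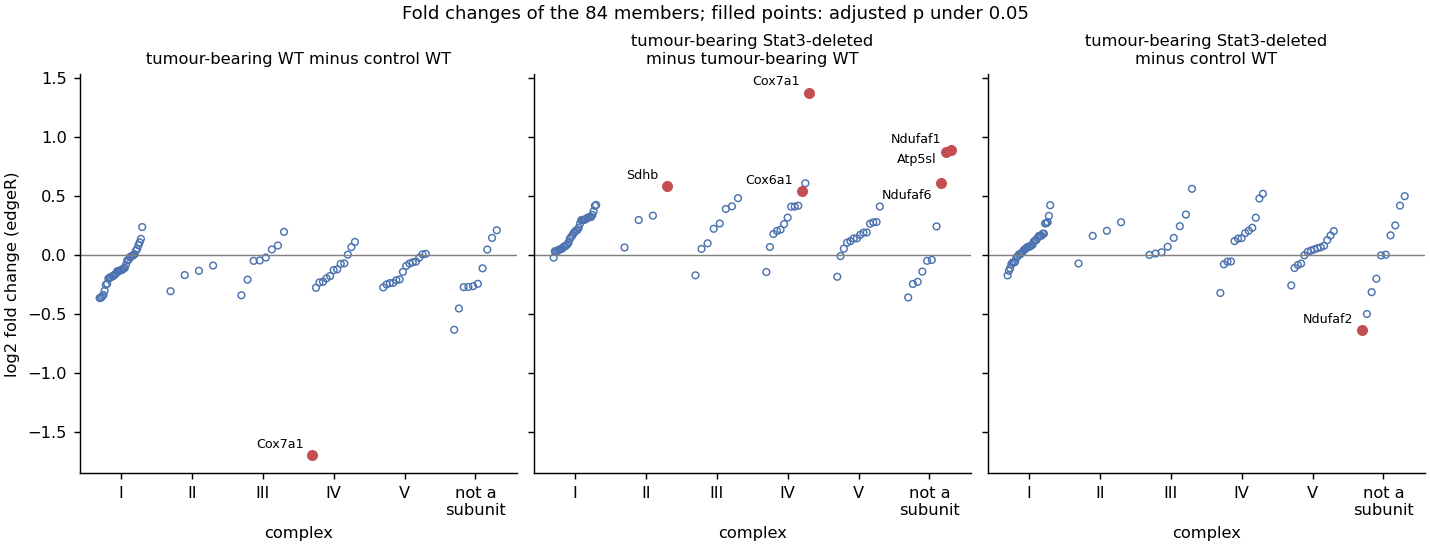
Log2 fold changes from edgeR (y axis) of the 84 members in the 3 comparisons, grouped by complex and ordered by value within each (x axis). Filled points have an adjusted p under 0.05: 1 member in the first panel, 6 in the second and 1 in the third.

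Cox6a1 encodes the form of subunit 6A of complex IV found in liver and most other tissues. It lies on chromosome 5 (115345652 to 115348958). Its level was 544 to 711 CPM in control WT (median 639), 456 to 705 in WT PDAC (median 501) and 726 to 895 in Stat3-deleted livers (median 786). Every Stat3-deleted liver was above every liver of both other groups. Against WT PDAC the log2 fold change was 0.54 (adjusted p = 0.0122, SE 0.13), and the call held in all 27 alternatives run. Of the 84 members 3 had no overlap between these groups in the higher direction, Cox6a1, Cox7a1 and Ndufaf6, beside 1.40% of all genes, and none in the lower, beside 1.90%.

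Sdhb encodes the iron-sulfur subunit of succinate dehydrogenase, the enzyme shared by the TCA cycle and the respiratory chain, and lies on chromosome 4 (140961271 to 140979198). Its level was 547 to 842 CPM in control WT (median 584), 398 to 702 in WT PDAC (median 496) and 690 to 927 in Stat3-deleted livers (median 731). WT PDAC liver 5 lay above Stat3-deleted livers 2 and 4, and the other 5 WT PDAC livers lay below all Stat3-deleted livers. The log2 fold change against WT PDAC was 0.58 (adjusted p = 0.0277, SE 0.16). The call was lost without WT PDAC liver 1, 3 or 4 (adjusted p = 0.0660, 0.0755 and 0.0740) and without Stat3-deleted liver 3 or 5 (adjusted p = 0.0764 and 0.0628). Its partner Sdha, the flavoprotein subunit, had a log2 fold change of 0.33 that did not pass in edgeR (adjusted p = 0.0816). Sdha passed in 3 of the 27 alternatives: DESeq2 (adjusted p = 0.0162), limma voom (adjusted p = 0.0255) and edgeR without WT PDAC liver 5 (adjusted p = 0.0262).

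Cox7a1 rose by 1.37 on the log2 scale against WT PDAC livers (adjusted p = 0.0292, SE 0.38). The call was lost without WT PDAC liver 1, 2 or 3 (adjusted p = 0.0519, 0.0518 and 0.0585) and without Stat3-deleted liver 3 (adjusted p = 0.0713). Its level in Stat3-deleted livers, given above, lay within the range of the control WT livers.

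The 3 genes named for complex I or ATP synthase, but not subunits of either, rose as well. Ndufaf1 (chromosome 2, 119655446 to 119662839), a factor that helps to build the membrane arm of complex I, had 7.83 to 14.7 CPM in WT PDAC livers (median 9.73) and 10.7 to 24.8 CPM in Stat3-deleted livers (median 19.5). Stat3-deleted liver 5 lay among the WT PDAC livers and the other 5 above them. Its log2 fold change was 0.88 (adjusted p = 0.00876, SE 0.20). Ndufaf6 (chromosome 4, 11048991 to 11076237), an assembly factor for the matrix arm, had 15.1 to 27.3 CPM in WT PDAC (median 21.1) and 27.7 to 36.0 CPM in Stat3-deleted livers (median 33.5), without overlap. Its log2 fold change was 0.61 (adjusted p = 0.0150, SE 0.15).

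Atp5sl (chromosome 7, 25619414 to 25625550), now named Dmac2 and counted among the factors of complex I assembly, had 13.8 to 34.5 CPM in WT PDAC (median 17.6) and 27.8 to 40.2 CPM in Stat3-deleted livers (median 36.9). WT PDAC liver 5, at 34.5 CPM, lay inside the range of the Stat3-deleted livers and the other 5 below it. The log2 fold change was 0.87 (adjusted p = 0.0146, SE 0.21). The calls of Ndufaf1, Ndufaf6 and Atp5sl held in all 27 alternatives run. The other 5 complex I assembly factors among the members did not pass, and 4 of the 7 had a log2 fold change below 0.

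**Figure D3:**
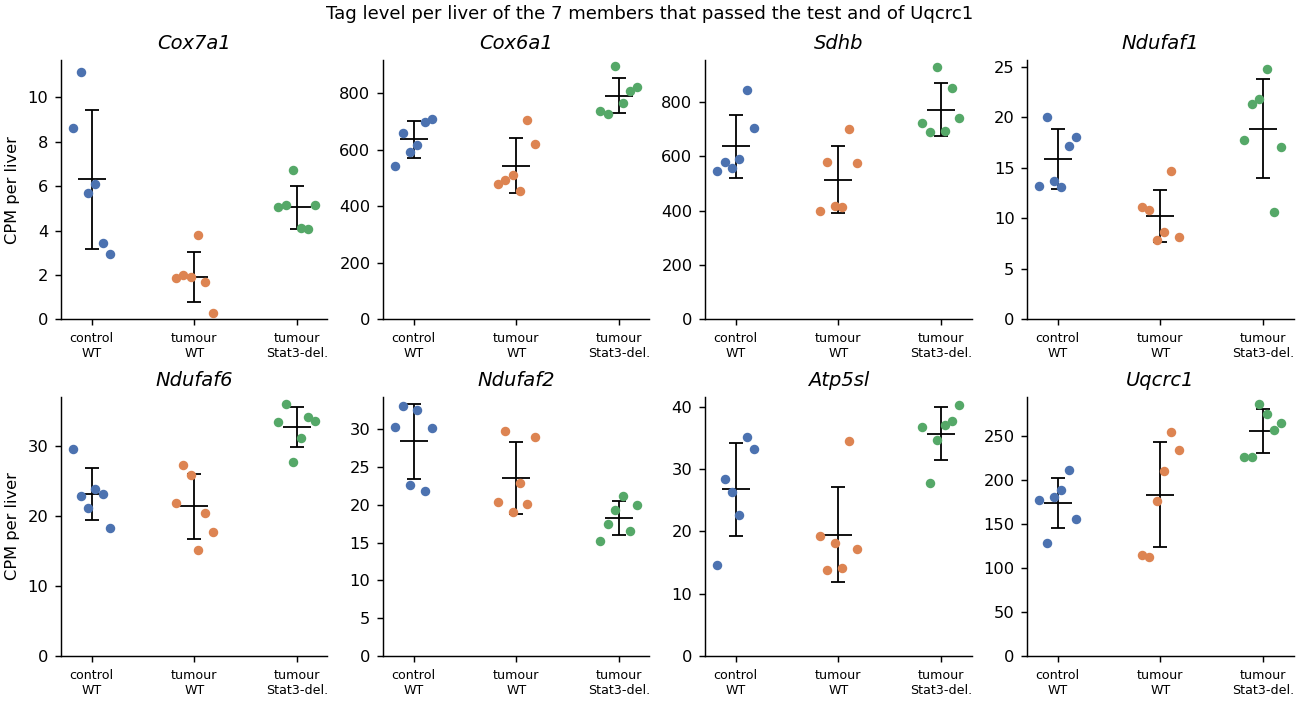
Tag level per liver, in CPM (y axes from 0), of the 7 members that passed the test in at least 1 comparison and of Uqcrc1, the member with the largest positive log2 fold change of Stat3-deleted against control WT livers. Points are single livers, 6 per group, with mean and SD; Cox6a1 and Ndufaf6 show no overlap between Stat3-deleted and WT PDAC livers, and Ndufaf2 is lowest in the Stat3-deleted livers.

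Promoters are shown for 4 of the 6 genes that rose in this comparison, without those of Ndufaf6 and Atp5sl. Their letters are set beside the binding motifs of the factors that are known to drive nuclear genes of the respiratory chain. Each is the 250 bases before the RefSeq transcription start on GRCm38.p6, 5′ to 3′ on the gene's strand, with motif matches in capitals.
Cox6a1, chr5:115348959-115349208, minus strand: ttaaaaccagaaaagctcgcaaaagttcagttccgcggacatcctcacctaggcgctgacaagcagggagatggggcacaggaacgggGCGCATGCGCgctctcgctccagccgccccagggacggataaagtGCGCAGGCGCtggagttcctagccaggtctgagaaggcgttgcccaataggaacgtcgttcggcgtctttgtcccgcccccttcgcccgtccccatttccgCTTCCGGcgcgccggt
Ndufaf1, chr2:119662835-119663084, minus strand: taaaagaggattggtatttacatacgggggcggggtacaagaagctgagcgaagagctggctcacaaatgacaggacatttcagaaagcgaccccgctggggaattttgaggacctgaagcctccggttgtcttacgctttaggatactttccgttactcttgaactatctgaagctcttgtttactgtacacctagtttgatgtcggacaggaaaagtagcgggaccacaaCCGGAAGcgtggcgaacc
Sdhb, chr4:140961021-140961270, plus strand: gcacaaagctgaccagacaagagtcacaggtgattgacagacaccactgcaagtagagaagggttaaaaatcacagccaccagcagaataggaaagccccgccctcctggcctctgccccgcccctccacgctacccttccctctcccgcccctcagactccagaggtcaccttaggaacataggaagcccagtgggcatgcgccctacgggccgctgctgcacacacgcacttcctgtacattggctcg
Cox7a1, chr7:30183921-30184170, plus strand: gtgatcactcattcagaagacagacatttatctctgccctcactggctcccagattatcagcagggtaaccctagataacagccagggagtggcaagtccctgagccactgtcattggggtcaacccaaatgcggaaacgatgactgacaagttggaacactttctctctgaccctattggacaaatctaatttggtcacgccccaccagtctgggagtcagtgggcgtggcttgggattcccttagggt
The motifs searched, on both strands, were the NRF1 palindrome (in capitals at both of its places in Cox6a1), CCGGAAG for ETS factors such as GABPA, AAGATGGC for YY1, AAGGTCA for ESRRA and TTCNNNGAA for STAT factors. Cox6a1 held 2 matches of the NRF1 motif, 162 to 153 and 117 to 108 bases before the start, and 1 of the ETS letters 16 to 10 bases before it. Ndufaf1 held 1 match of the ETS letters, 18 to 12 bases before the start used for its window. That start lies a few bases inside the gene span given above. None of these motifs is in the Sdhb and Cox7a1 windows.

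Among all members the letters can be counted for the 72 with a promoter in RefSeq, in windows of 300 bases that run 50 bases past the start. The NRF1 motif was in 17 of the 72 (23.6%), beside 11.7% of the 8614 tested genes with a promoter and 5.19% of all 27025 genes. The ETS letters were in 17 members (23.6%), beside 20.0% and 9.93%, and the YY1 letters in 11 (15.3%), beside 5.46% and 3.19%. The ESRRA letters were in 7 (9.72%), beside 4.23% and 5.38%. The STAT letters were in 5 (6.94%), beside 8.39% and 9.55%. By complex, the YY1 letters were in 7 of 31 promoters of complex I and 3 of 13 of complex V, and in 0 of 3, 0 of 5 and 0 of 11 of complexes II, III and IV. A match of letters is a description of the window and does not show that a factor binds there.

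The other subunits had smaller differences between Stat3-deleted and WT livers of tumour-bearing mice. In complex I 0 of 35 subunits passed in edgeR, 1 in DESeq2 (Ndufa9) and 5 in limma voom, and 12 were higher and 0 lower at an unadjusted p under 0.05. Of the 7 core subunits, which carry the NADH site and the iron-sulfur clusters, all 7 had a log2 fold change above 0, from 0.04 to 0.34. Of the 28 accessory subunits 27 were above 0, from -0.02 to 0.42 over the list. Ndufa9, an accessory subunit at the junction of the matrix and membrane arms, had 78.3 to 122 CPM in WT PDAC and 112 to 154 CPM in Stat3-deleted livers, with an overlap, and a log2 fold change of 0.42 (adjusted p = 0.0532, SE 0.13).

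In complex III 0 of 8 subunits passed in edgeR, 1 in DESeq2 (Uqcrc2) and 3 in limma voom, with 3 higher and 0 lower at an unadjusted p under 0.05. The 2 core subunits, Uqcrc1 and Uqcrc2, together had 327 to 485 CPM in WT PDAC and 500 to 616 CPM in Stat3-deleted livers. This sum did not overlap between the 2 groups, nor between Stat3-deleted and control WT livers (397 to 494 CPM). Taken singly, 0 of the 2 genes separated Stat3-deleted from WT PDAC livers, and 1, Uqcrc1, separated them from control WT livers. Of all genes, 1.40% and 1.98% were higher without overlap in these 2 comparisons. The Rieske iron-sulfur subunit Uqcrfs1 had a log2 fold change of 0.10 (adjusted p = 0.869, SE 0.23), and Uqcrq one of -0.17 (adjusted p = 0.491, SE 0.13), the lowest of the complex.

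In complex IV 12 of 13 subunits had a log2 fold change above 0. Of the 13, 2 rose in edgeR, 5 in DESeq2 and 6 in limma voom, beside 2.89, 3.93 and 5.13% of all genes higher. At an unadjusted p under 0.05, 6 were higher and 0 lower in edgeR. Cox8a, the liver form of the smallest subunit, had 90.6 to 220.4 CPM in WT PDAC and 158 to 268 CPM in Stat3-deleted livers, with an overlap and a log2 fold change of 0.61 (adjusted p = 0.0595, SE 0.19). It passed in 7 of the 27 alternatives. Cox7a2, the liver form of the subunit whose muscle form is Cox7a1, had a log2 fold change of 0.42 (adjusted p = 0.0717, SE 0.13). It passed in 5 of the 27 alternatives, DESeq2 and limma voom among them. In complex V 0 of 14 subunits passed in edgeR, DESeq2 or limma voom, with 2 higher and 0 lower at an unadjusted p under 0.05, and the largest log2 fold change was 0.41 for Atp5g1 (adjusted p = 0.106). The catalytic subunit Atp5b had 395 to 638 CPM in WT PDAC and 445 to 748 CPM in Stat3-deleted livers (0.26, adjusted p = 0.401), while Atp5e, a small subunit of the central stalk, had -0.19 (adjusted p = 0.501).

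The third comparison sets Stat3-deleted livers of tumour-bearing mice against control WT livers, so that genotype and tumour differ together. Only Ndufaf2 passed, and it fell. It is 1 of 84 members, beside 4.85% of all genes called, 2.19% of them higher and 2.66% lower. At an unadjusted p under 0.05, 8 members were higher and 2 lower, beside 9.35 and 11.5% of all genes, 20.8% together. The members' median log2 fold change was 0.07, beside -0.01 for all genes, and 59 of 84 were above 0, beside 49.1% of all genes, with 50.9% below. With library totals the median was -0.05, beside -0.13 for all genes, so its sign depended on the scaling and its distance from all genes did not. DESeq2 called 3 members, beside 7.82% of all genes, limma voom 6, beside 11.7%, and edgeR on the 2 groups alone 3, beside 8.32%. The number of members called in edgeR was 0 without control WT liver 4 or Stat3-deleted liver 5. In these fits 295 and 258 of all genes were called, against 544 in the main fit. It was 2 without control WT liver 1, where 342 of all genes were called, and 2 without WT PDAC liver 4 or 6. The count of all genes without either of these WT PDAC livers is not given here. In this comparison 2 of 8 Kupffer cell markers (Vsig4 and Cd5l), 2 of 7 endothelial markers (Stab2 and Clec4g) and 1 of 8 monocyte and macrophage markers (Cd68) rose. Of the 8 hepatocyte markers Ttr rose and Apob fell, and 5 had a log2 fold change above 0 and 3 below. The part of these cells in the members' values was not tested.

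Ndufaf2 (chromosome 13, 108052589 to 108158652) encodes an assembly factor of complex I that is related to the accessory subunit Ndufa12. Its level was 21.8 to 33.1 CPM in control WT (median 30.3), 19.03 to 29.8 in WT PDAC (median 21.7) and 15.3 to 21.2 in Stat3-deleted livers (median 18.4). Every Stat3-deleted liver lay below every control WT liver, and the WT PDAC livers overlapped with both. The log2 fold change against control WT was -0.63 (adjusted p = 0.0212, SE 0.15), and the call was lost without control WT liver 4 (adjusted p = 0.0501) or Stat3-deleted liver 5 (adjusted p = 0.0550). It was the 1 member without overlap in the lower direction, beside 1.84% of all genes. Of the members 3 were without overlap in the higher direction, Cox6a1, Ndufa9 and Uqcrc1, beside 1.98%.

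Uqcrc1 had the largest positive log2 fold change of this comparison, 0.56 (adjusted p = 0.0744, SE 0.18). Its level was 128 to 211 CPM in control WT, 112 to 254 in WT PDAC and 226 to 286 in Stat3-deleted livers. The WT PDAC livers were spread over the whole range of the control WT livers and beyond it, and 2 of them lay among the Stat3-deleted livers. Ndufaf6 had 0.50 (adjusted p = 0.0576, SE 0.15) and passed in 7 of 27 alternatives, and Ndufaf4, another assembly factor, had -0.50 (adjusted p = 0.0820, SE 0.17).

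Several subunits of complexes IV and V exist as isoforms of different tissues, and the table shows which of them the livers used. Counts over the 18 libraries were 99660 for Cox4i1 and 11 for Cox4i2, the lung form, 89805 for Cox6a1 and 31 for Cox6a2, the heart and muscle form, and 22661 for Cox8a and 58 for Cox8b, also a heart and muscle form. Cox7a2 had 105751 counts and Cox7a1 597. Ndufa4, which is now placed in complex IV, had 35043 and its hypoxia-induced relative Ndufa4l2 had 25. Of the 3 genes for the identical c-ring protein of ATP synthase, Atp5g3 had 162477 counts, Atp5g1 8928 and Atp5g2 55. Of the isoforms of other tissues, Cox7a1 and the testis-type Cox6b2 reached the minimum of 100 counts.

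The count minimum left out 8 of the 92 genes. Atp5g2 with 55 and Cox8b with 58 counts were just outside it, and Cox6b2 with 191 and Atp5s with 386 just inside. Ndufs5, a subunit of complex I, was listed at 0 in all 18 libraries, as were Cox7b2 and Cox8c, both forms found mainly in testis. Of the 50-base runs in the annotated 3′ ends (300 bases) of Ndufs5 47.9% also occur in a processed pseudogene, and of those of Atp5g2 55.6% occur in other genes. Among the members, 29 of the 83 found in the annotation shared at least 1 such run with another gene, and 4 shared at least 50%, Atp5l (70.9%), Cox7c (65.3%), Atp5h (59.4%) and Ndufs3 (53.0%), so their levels are uncertain. Cox6a1 shared 2.79% of its runs and Cox7a1 and Sdhb shared 0.

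Within each group some members varied far more between livers than others, and the 3 described here were lowest in nearly the same livers. The median coefficient of variation was 15.6% in control WT, 17.03% in WT PDAC and 14.7% in Stat3-deleted livers. Sdhd, a membrane anchor of complex II, had the largest in each group, 64.9, 81.0 and 111%. Its level was 7.13 to 41.6 CPM in control WT, 2.76 to 38.5 in WT PDAC and 5.51 to 63.9 in Stat3-deleted livers. Its lowest values were in control WT livers 5 and 3, WT PDAC livers 4 and 5 and Stat3-deleted livers 4 and 5. Cox7c, a small subunit of complex IV, was lowest in the same livers, 58.7 and 70.0 CPM in control WT, 44.5 and 52.5 in WT PDAC and 70.5 and 49.8 in Stat3-deleted livers, against up to 200.5, 210.5 and 308 CPM elsewhere in these groups. Atp5j, of the peripheral stalk of ATP synthase, ran from 28.4 to 145 CPM and was lowest in WT PDAC liver 4.

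These 3 members have a low GC content at the 3′ end, where the tags are read. The GC content of the last 300 annotated bases ran over 83 members from 29.3% for Uqcrfs1 to 58.7% for Uqcr11, with a median of 47.0%, beside 44.7% over all tested genes. The 10 members with the lowest GC content (29.3 to 39.0%), which include Sdhd, Atp5j, Ndufa4, Cox7c and Atp5g3, had median log2 deviations from their group means of -0.53 in control WT liver 5, -0.49 in WT PDAC liver 4, -0.62 in Stat3-deleted liver 4 and 0.71 in Stat3-deleted liver 6. The 10 with the highest (55 to 58.7%) had 0.33 in control WT liver 5, 0.02 in WT PDAC liver 4, -0.19 in Stat3-deleted liver 4 and 0.07 in Stat3-deleted liver 6. Across the 83 members, which share each library and its depth, Spearman's rho between GC content and deviation ran from -0.60 in Stat3-deleted liver 2 to 0.60 in Stat3-deleted liver 5. Over all 10582 tested genes with a value it ran from -0.35 to 0.33.

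**Figure D4:**
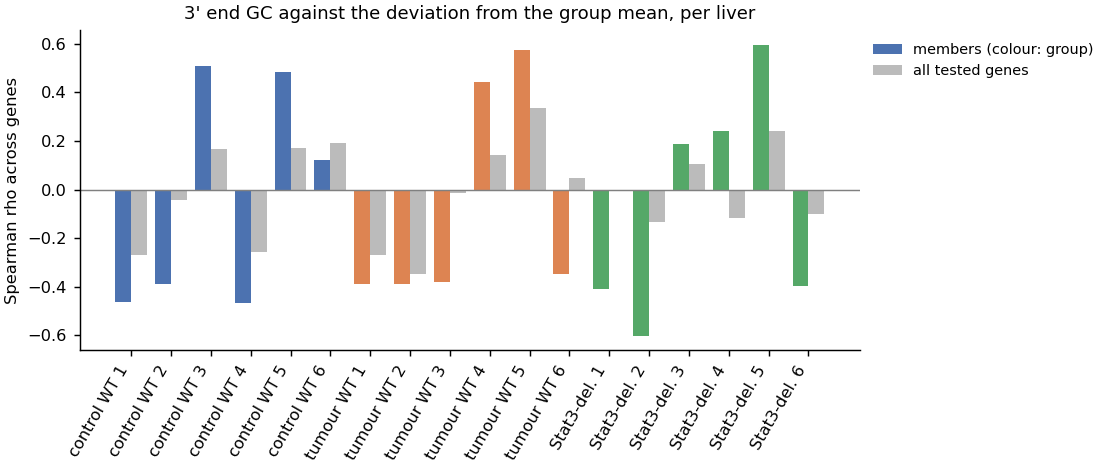
Spearman's rho across genes (y axis) between the GC content of the annotated 3′ end and the deviation of a gene's log2 CPM from its group mean, for each of the 18 livers (x axis). Coloured bars are the 83 members and grey bars all 10582 tested genes with a value; members run from -0.60 to 0.60 and all genes from -0.35 to 0.33, with livers of either sign in each group.

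Livers with positive and negative values occurred in each group. Between groups, rho of GC content with the log2 fold change was -0.16 over the members for WT PDAC against control WT, 0.19 for Stat3-deleted against WT PDAC and -0.02 for Stat3-deleted against control WT, beside 0.09, 0.21 and 0.28 over all genes. With the trend of each library on GC content taken out, a step chosen after seeing the data, the numbers of members called were 1, 8 and 3 in the 3 comparisons, beside 2.52, 6.24 and 4.24% of all genes. The 8 hold the 6 genes named above with Uqcrb and Uqcrc2, and the 3 hold Ndufaf2 with Uqcrb and Ndufaf6. The medians of the members were then -0.15, 0.20 and 0.08.

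Single livers also stood high or low for the members as a whole. WT PDAC liver 1 was the lowest of its group for 23 and liver 4 for 31 of the 84 members, and livers 5 and 6 were the highest for 31 and 32. Stat3-deleted liver 4 was the lowest of its group for 46 and liver 3 the highest for 40 members. Control WT liver 5 was the lowest for 33 and the highest for 29.

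Of 16 tested regulators of mitochondrial biogenesis, genes that act upstream of the respiratory chain, 3 rose in Stat3-deleted against WT livers of tumour-bearing mice, none fell and 13 did not pass, beside 6.12% of all genes called. DESeq2 and limma voom also called 3 higher and 0 lower. The median log2 fold change of the 16 was 0.20, beside -0.03 for all genes. Ppargc1a, the coactivator known for driving mitochondrial biogenesis and, in liver, gluconeogenesis, had 10.0 to 14.5 CPM in control WT (median 12.2), 4.36 to 15.1 in WT PDAC (median 5.50) and 9.55 to 42.3 in Stat3-deleted livers (median 18.5). All 6 Stat3-deleted livers lay above the mean of the WT PDAC livers, of which livers 1 and 6 overlapped with them. The log2 fold change was 1.5 (adjusted p = 0.00596, SE 0.32), and the call held with each of the 18 livers left out.

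Its relative Ppargc1b had 2.76 to 11.8 CPM in WT PDAC and 8.14 to 23.2 CPM in Stat3-deleted livers, a log2 fold change of 0.97 (adjusted p = 0.0435, SE 0.28). That call was lost in 11 of the 18 fits that left out 1 liver (control WT 3, 4 or 6, WT PDAC 2, 3 or 4, Stat3-deleted 1, 3, 4, 5 or 6), with adjusted p up to 0.110 without Stat3-deleted liver 4, and with the 2 groups fitted alone (adjusted p = 0.0679). Ppara, the nuclear receptor for fatty acid oxidation, had 132 to 244 CPM in WT PDAC and 240.5 to 405 CPM in Stat3-deleted livers, with 1 WT PDAC liver above the lowest of them. Its log2 fold change was 0.63 (adjusted p = 0.0181, SE 0.16), with the call lost without Stat3-deleted liver 4 (adjusted p = 0.0521). Nrf1 (0.21, adjusted p = 0.674), Gabpa (-0.15, adjusted p = 0.677), Esrra (0.16, adjusted p = 0.878) and Tfam (-0.19, adjusted p = 0.540), which encode factors that act on nuclear respiratory genes or mitochondrial DNA, did not pass. Against control WT, 0 of the 16 passed for either tumour-bearing group in any of the 3 tools, with 3 lower in WT PDAC and 2 higher in Stat3-deleted livers at an unadjusted p under 0.05.

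**Figure D5:**
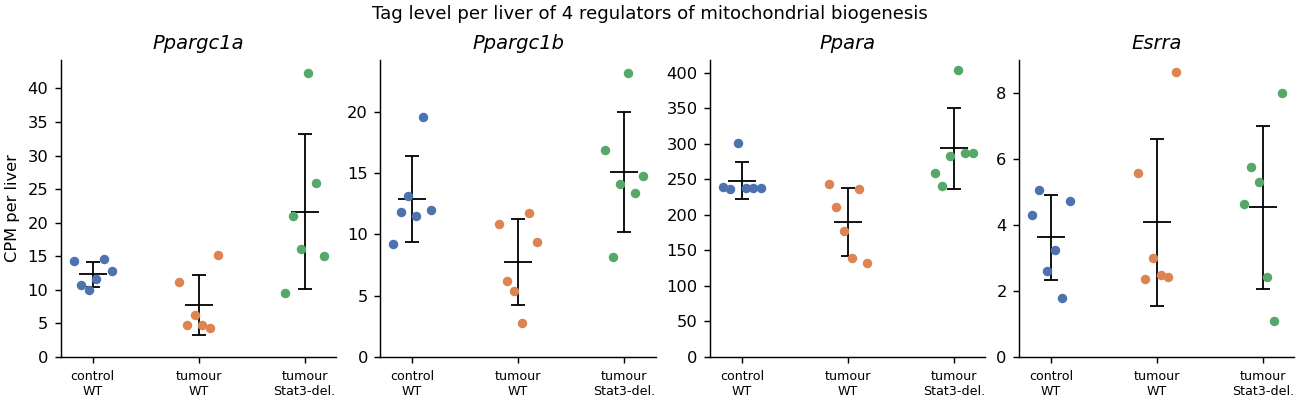
Tag level per liver, in CPM (y axes from 0), of 4 regulators of mitochondrial biogenesis. Points are single livers, 6 per group, with mean and SD; Ppargc1a, Ppargc1b and Ppara passed the test between Stat3-deleted and WT PDAC livers, with log2 fold changes of 1.5, 0.97 and 0.63, and Esrra did not.

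The rest of the oxidative phosphorylation machinery had few calls. Of 14 further subunits and electron carriers under other names 0 passed in any comparison in edgeR, and DESeq2 and limma voom each called 1, Higd2a, in Stat3-deleted against WT PDAC livers. Unadjusted p under 0.05 were found for 1 lower gene in the first comparison, 3 higher in the second and 0 in the third. Their median log2 fold changes were -0.16, 0.18 and 0.16. Cyc1, the cytochrome c1 subunit of complex III, had 90.6 to 149 CPM in WT PDAC and 125 to 183 CPM in Stat3-deleted livers (0.38, adjusted p = 0.104), and Cycs, cytochrome c, had -0.02 (adjusted p = 0.956). Of 37 tested assembly factors outside the name pattern 0 passed in edgeR, with 2, 4 and 4 at an unadjusted p under 0.05. DESeq2 called 1, 0 and 1 of them and limma voom 0, 0 and 2, and the medians were -0.07, 0.05 and -0.04.

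In the TCA cycle, which feeds the chain with NADH and succinate, 18 genes were tested in Stat3-deleted against WT PDAC livers. In edgeR 1 of the 18 rose and 1 fell, beside 6.12% of all genes called. DESeq2 called 2 higher and 1 lower, and limma voom 4 higher and 1 lower. At an unadjusted p under 0.05 edgeR had 5 higher and 1 lower, beside 8.70 and 10.7% of all genes. Idh2, the mitochondrial NADP-dependent isocitrate dehydrogenase, had 167 to 223 CPM in WT PDAC and 216 to 327 CPM in Stat3-deleted livers (0.51, adjusted p = 0.0357, SE 0.14). The call was lost in 7 of 18 fits that left out 1 liver (WT PDAC 1, 3 or 4, Stat3-deleted 3, 4, 5 or 6), at most at an adjusted p of 0.0941 without Stat3-deleted liver 5, and when the trend on GC content was taken out (adjusted p = 0.0811). Pcx, pyruvate carboxylase, which makes oxaloacetate for gluconeogenesis, had 189 to 469 CPM in WT PDAC and 157 to 222 CPM in Stat3-deleted livers (-0.69, adjusted p = 0.0158, SE 0.17), lost without WT PDAC liver 4 (adjusted p = 0.0526). The list's median was 0.21, beside -0.17 for WT PDAC against control WT, where 0 of 18 passed in edgeR or limma voom and 1 in DESeq2 (Pcx, higher), with 1 higher and 1 lower at an unadjusted p under 0.05.

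Of 11 tested genes of the hypoxia response Ldha was the one called in edgeR. For Stat3-deleted against control WT livers edgeR called 0 of the 11, with 2 higher and 1 lower at an unadjusted p under 0.05, while DESeq2 called Adm higher and Vegfa lower and limma voom Vegfa lower. Ldha encodes the lactate dehydrogenase subunit that favours lactate formation when respiration is limited, and had 384 to 594 CPM in control WT (median 436), 657 to 1366 in WT PDAC (median 809) and 366 to 617 in Stat3-deleted livers (median 497). The WT PDAC livers lay above all livers of both other groups. Its log2 fold change was 0.97 (adjusted p = 0.00181, SE 0.17) against control WT, a call lost within the lower and the higher run of label numbers (adjusted p = 0.107 and 0.161, 3 livers against 3 in edgeR), and -0.86 (adjusted p = 0.00277, SE 0.17) for Stat3-deleted against WT PDAC. Vdac3, a pore of the outer mitochondrial membrane, rose in Stat3-deleted against control WT livers by 0.62 on the log2 scale (adjusted p = 0.0455, SE 0.18), 1 of 12 carriers and defence genes, and lost that call in 9 of the 18 fits that left out 1 liver (control WT 1 to 5, WT PDAC 3, Stat3-deleted 2, 3 or 5), with adjusted p up to 0.130 without Stat3-deleted liver 3. It was also lost with library totals (adjusted p = 0.0818) and with no filter on low counts (adjusted p = 0.0567). Of 10 tested genes of coenzyme Q synthesis and 17 of mitochondrial import and cristae 0 passed in edgeR in any comparison. At an unadjusted p under 0.05 the first list had 2, 2 and 1 and the second 2, 3 and 3 genes in the 3 comparisons. DESeq2 called 2, 1 and 0 of the first and none of the second, and limma voom 1, 1 and 0 of the first and 0, 1 and 1 of the second.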

How the data were processed

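Whole-liver RNA went into QuantSeq 3′ FWD libraries, per the labels' protocols. STAR and mm10 are named for the alignment in the submitters' processing notes. For the counting tool, the annotation and the use of strand the sources used here name nothing, so overlapping and antisense genes cannot be separated. The deposited table holds raw counts for 24421 symbols in 18 columns, matched to samples by the numbers in the labels. Of these symbols 27, turned into spreadsheet dates (0.103 to 0.166% of counts), were left out. Nothing in the labels says how replicates of a group were obtained beyond separate mice numbers, so p-values measure the spread between these samples.

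Counts were tested with edgeR 4.0.16 in R 4.3.3: TMM factors, filterByExpr (11218 genes, among them all 84 members), and a quasi-likelihood fit with 1 coefficient per group over 18 livers (15 residual degrees of freedom). Tests are two-sided, with Benjamini-Hochberg adjustment over all tested genes and a threshold of 0.05. SE is that of the log2 fold change. The common biological coefficient of variation was 0.281. The members, the gene lists and the rule for named genes were chosen with earlier results of these data known. Named are members that passed, the 2 most abundant of each complex, the 3 highest and 3 lowest log2 fold changes per comparison, isoform pairs, genes next to the count minimum, up to 3 genes of each other list with the smallest adjusted p, Stat3 and Ppargc1a; the other genes named (Alb, Apob, Atp5b, Atp5e, Atp5h, Atp5j, Atp5l, Cox7b2, Cox7c, Cox8c, Cyp1a2, Cyp2f2, Esrra, Gabpa, Hsd17b13, Ndufa5, Ndufa9, Ndufs3, Ndufs5, Ndufv1, Nrf1, Sdhd, Sox9, Spp1, Ttr, Uqcr11, Uqcrb, Uqcrc2, Uqcrfs1 and the Kupffer, endothelial and macrophage markers) were chosen after their values were seen. Alternatives were RLE factors, library totals, no or a stricter filter (1 CPM in 6 libraries), DESeq2 1.42.0, limma 3.58.1 voom with quality weights, the 2 groups alone, the replicate number or label-number run as a block, each liver left out, and, chosen after seeing the data, each label-number run alone and a lowess trend of each library on 3′ GC content. Positions, names and promoters came from RefSeq (GRCm38.p6, the assembly of mm10; all 84 members matched), and 3′ ends from GENCODE M21. The procedure was tested on simulated counts. Scripts used Python 3.11.15.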

Additional observations from a re-analysis of the deposited data

Results flagged for a closer look

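For the 26 named members, 9 of 78 groups of 6 livers, and for the sums of the 5 complexes 0 of 15, held a liver far from the other 5 (Dixon's test at 95%, which flags about 1 in 20 groups by chance). Of these, 5 were control WT liver 5, which was the highest of its group for Ndufa2 (849 CPM, next 605), Uqcrh (845 CPM, next 701), Cox7a2 (999 CPM, next 815) and Cox4i1 (1080 CPM, next 778), and the lowest for Ndufa8 (96.6 CPM, next 161). WT PDAC liver 5 was the highest for Atp5sl (34.5 CPM, next 19.3) and Sdha (364.8 CPM, next 293). Among Stat3-deleted livers, liver 3 was the highest for Atp5k (1368 CPM, next 1109) and liver 5 for Atp5g1 (96.6 CPM, next 76.9).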

How the results depend on the processing

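Of 2181 values of named members under an alternative, 2131 kept their side of the threshold, 14 lost and 36 gained a call, and none that was called reversed. The members' median log2 fold change moved by more than the spread only for WT PDAC against control WT with library totals (-0.32). In that comparison all genes called were 462 in DESeq2, 128 with the 2 groups alone, 126 with label-number run as block, 38 within the lower and 50 within the higher run, and 132 to 462 with 1 liver left out (159 without control WT liver 6, 163 without control WT liver 4, 462, 132 and 139 without WT PDAC liver 1, 3 and 4). Members called were 4 with library totals, a scale on which the median of all genes was itself -0.19. The share of all genes called on that scale is not given here, so this count has no background beside it. Members called were 0 with the 2 groups alone, with the run as a block, within the higher run and with a minimum of 1000 counts. With 1 liver left out they were 1 to 3.

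For Stat3-deleted against WT PDAC, limma voom called 1097 genes. Members called were 13 with library totals, 12 in DESeq2 and 19 in limma voom, all higher, beside 3.78, 3.93 and 5.13% of all genes higher. They were 3 among subunits alone and 4 to 12 with 1 liver left out, where 469 to 906 of all genes were called. For Stat3-deleted against control WT, genes called were 860 in DESeq2, 1318 in limma voom, 894 with the 2 groups alone and 258 to 783 with 1 liver left out (342, 295 and 361 without control WT liver 1, 4 and 5, 272, 279 and 258 without Stat3-deleted liver 2, 3 and 5). Members called were 3 in DESeq2, 6 in limma voom, 3 with the 2 groups alone and 3 with the GC trend removed. The shares of all genes called there were 7.82, 11.7, 8.32 and 4.24%. Members called were 0 among subunits alone and 0 to 2 with 1 liver left out. They were 2 with library totals, a count that has no share of all genes beside it here. The cause of these shifts was not tested. With library totals the control WT sums were 8443 CPM for complex I, 3998 for complex III and 5225 for complex IV.

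Replicate numbers are shared by the groups, but same-numbered livers did not deviate together (correlations from -0.126 to 0.309 over the 3 comparisons). With the replicate block, members called were 1, 11 and 2, and genes called 219, 710 and 570; 1, 1 and 0 of 6 numbers had their best partner in their own number. The planned test of mitochondrially encoded transcripts was not run. Depth limits the low members most: 5 of 84 had a mean under 10 CPM.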
